A study of Homo sapiens with 20 samples.

Results

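The FANC genes encode proteins of the Fanconi anemia pathway, which repairs covalent cross-links between the strands of DNA. When a replication fork stalls at a cross-link, a core complex of FANC proteins gathers on the chromatin, and its ubiquitin ligase attaches ubiquitin to FANCD2 and FANCI. The modified pair then brings in nucleases that unhook the lesion, and polymerases and recombination factors that restore the duplex. Inherited loss of the pathway causes Fanconi anemia, with bone marrow failure and a high risk of cancer. The genes described are the pair FANCD2 and FANCI and the 8 core complex members FANCA, FANCB, FANCC, FANCE, FANCF, FANCG, FANCL and FANCM, chosen by symbol. All 10 were found among the 50775 features of the count files, and all 10 passed the filter on low counts that kept 16698 genes.

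RNA was sequenced from 5 established human cancer cell lines that had been given torkinib (PP242), a compound that blocks the kinase MTOR, for 72 h, or left untreated. Torkinib was used at 10 µM in 94T778, a well differentiated liposarcoma line, at 4 µM in the melanoma lines A375 and SKMEL28 and the breast cancer line AU565, and at 0.8 µM in the breast cancer line SKBR3. Each of the 5 treated and 5 untreated groups held 2 libraries, 20 in all. The doses had been picked to arrest cycling while cells stayed viable, according to the treatment protocol, and dose and line cannot be told apart except among A375, SKMEL28 and AU565. Each line is a single culture model, and SKBR3 and AU565 are known to derive from the same donor. The purpose given for the study was to learn what blocking MTOR does to the expression of DNA repair genes.

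Libraries held 4040023 to 9737903 counted reads, of which 459 to 6326 fell on the 10 FANC genes. Levels are given as normalised CPM, read counts scaled to a common library size, and changes as log2 fold changes of torkinib over untreated with their standard error (SE). A change was called at an adjusted p under 0.05 in the quasi-likelihood test of edgeR, adjusted by Benjamini-Hochberg over all genes tested. The 7 listed genes of the 12q region amplified in liposarcoma summed to 12275 to 12399 CPM in untreated 94T778 and to at most 906 CPM in any other untreated library. The luminal and HER2 list summed to 18093 to 25570 CPM in the untreated breast lines and to at most 469 CPM elsewhere. CDH1, a gene of that list, had 0 CPM in each untreated library of SKBR3 and AU565. SOX10, a melanocyte lineage factor, stood at 461 to 599 CPM in untreated A375 and SKMEL28 and at 0 to 2.20 CPM in the other untreated libraries. Other listed melanocyte genes set A375 and SKMEL28 apart. PMEL had 6.33 and 1.55 CPM in untreated A375, against 4218 and 3907 CPM in untreated SKMEL28. MITF had 30.6 and 34.1 CPM in untreated A375, against 502 and 540 CPM in untreated SKMEL28. MLANA, TYR, DCT and TYRP1 were at most 0.923 CPM in untreated A375 and at least 411 CPM in untreated SKMEL28. A list of 5 blood markers summed to 0 to 19.2 CPM over all libraries. The endothelial gene CDH5 moved with treatment in the breast lines: it had 163 and 169 CPM with torkinib, against 16.4 and 21.7 CPM untreated in SKBR3, while KDR and VWF stood at 0 to 3.51 CPM in the breast lines. Its part in the results was not tested. SKBR3 untreated replicates 1 and 2 had 7.54 and 23.8 CPM of the melanocyte gene PMEL, and A375 untreated replicates 1 and 2 had 223 and 106 CPM of MDM2, a 12q gene. The counts of FANC genes called lower were the same without either A375 untreated replicate or either SKBR3 untreated replicate. Without SKBR3 untreated replicate 2, however, the genes called in SKBR3 were not the same ones. FANCE there changed by -0.52 instead of -0.68, and FANCC by -0.68 instead of -0.46. The replicates of untreated SKBR3 differed most among the 10 groups, with a chi-square per gene of 11.1 against 1.34 to 3.15 in the other groups. MTOR itself stood at 79.7 ± 2.92 CPM with torkinib and 119.9 ± 1.83 CPM untreated in AU565, and at 124 ± 8.92 and 123 ± 2.75 CPM in A375 (SD, n = 2 each).

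Torkinib lowered 9 of the 10 FANC genes and raised FANCF on the average of the 5 lines, beside 28.1% of all genes called lower and 28.4% called higher. The median change over the 10 genes was -0.86, beside -0.01 over all genes tested. FANCD2, FANCI, FANCA, FANCB and FANCG were each called lower in all 5 lines, a pattern that 4.62% of all genes tested shared. Per line, 8 of 10 were called lower in AU565 (28.6% of all genes) and 8 in 94T778 (23.8%), 7 in SKMEL28 (23.7%), and 6 each in A375 (24.3%) and SKBR3 (26.7%). FANCF was the one gene called higher, in SKMEL28 (20.4% of all genes called higher), SKBR3 (24.6%) and AU565 (26.9%), and none was in 94T778 (23.8%) or A375 (18.5%). Both torkinib libraries lay below both untreated libraries in all 5 lines for 6 of the 10 genes, the 5 named above and FANCM, against 7.7% of all genes. RNA was pooled over all cells of a culture, so fewer cells expressing a gene and less RNA per cell cannot be told apart.

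**Figure D1:**
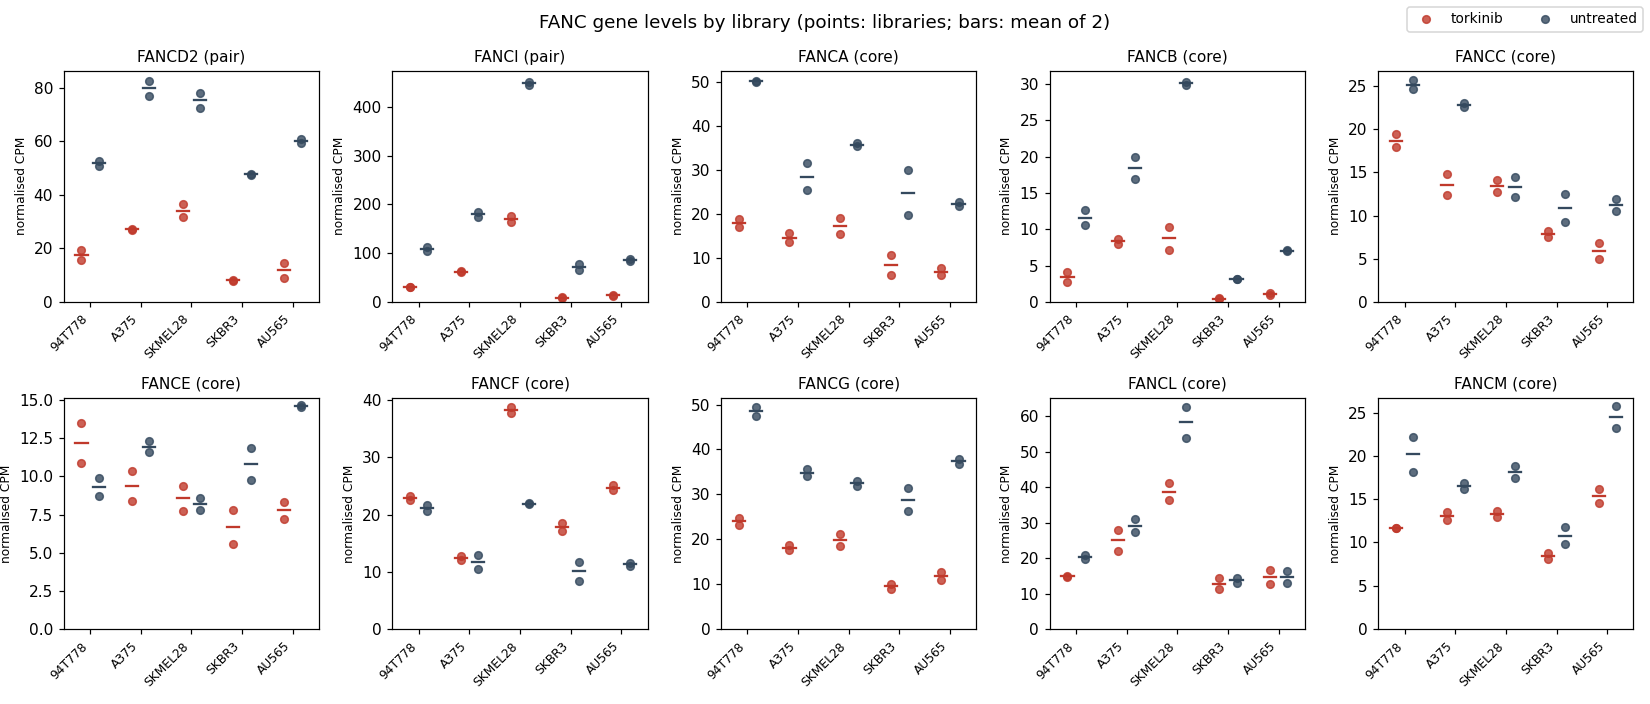
Normalised CPM (y axis, linear from 0, own scale per gene) of the 10 FANC genes in each of 5 lines, torkinib in red left of untreated in dark blue. Points are single libraries and bars the mean of 2; FANCI reached 445 and 452 CPM in untreated SKMEL28, and FANCF stood higher with torkinib in SKMEL28, SKBR3 and AU565.

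FANCD2 and FANCI, the paired substrates of the pathway's ubiquitin ligase, fell in all 5 lines, FANCI furthest of the 10 genes on the average at -2.10 (SE 0.05) and FANCD2 at -1.84 (SE 0.06). FANCI, which is clamped on DNA together with FANCD2, had 31.2 and 30.7 CPM with torkinib in 94T778, against 113 and 103.8 CPM untreated. In A375 FANCI had 63.8 and 60.5 CPM with torkinib, against 185 and 175 CPM untreated. SKMEL28 gave 177 and 163 CPM of FANCI with torkinib, against 445 and 452 CPM untreated. No treated library of FANCI reached an untreated one of its line, as was so for 36.9% of all genes in AU565, 34.2% in SKBR3, 35.4% in SKMEL28, 37% in A375 and 34.2% in 94T778, although treated SKMEL28 stood above untreated 94T778, SKBR3 and AU565. The breast lines had the lowest treated levels of FANCI: SKBR3 had 7.55 and 9.89 CPM with torkinib, against 66.2 and 78.3 CPM untreated. In AU565 the values of FANCI were 12.7 and 13.6 CPM with torkinib, against 84.1 and 88.5 CPM untreated. Treated means of FANCI were thus 12.1% of untreated in SKBR3, 15.3% in AU565, 28.6% in 94T778, 34.5% in A375 and 37.9% in SKMEL28. The log2 change of FANCI was -3.04 (SE 0.14) in SKBR3 and -1.40 (SE 0.08) in SKMEL28, with adjusted p of 3.05e-20 and 1.47e-17. The spread behind these values was estimated over all groups together, although the untreated SKBR3 replicates differed most. They therefore do not rank the lines by certainty.

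FANCD2 also fell furthest in SKBR3 and AU565 and least in SKMEL28. It had 19.5 and 15.6 CPM with torkinib in 94T778, against 50.8 and 52.8 CPM untreated. A375 had 27.4 and 26.8 CPM of FANCD2 with torkinib, against 82.7 and 77.1 CPM untreated, and SKMEL28 had 36.7 and 31.6 CPM with torkinib, against 72.5 and 78.2 CPM untreated. SKBR3 again stood lowest after treatment. There FANCD2 had 7.95 and 8.30 CPM with torkinib, against 47.8 and 47.5 CPM untreated, and AU565 had 14.6 and 8.94 CPM with torkinib, against 59.2 and 61.1 CPM untreated. The treated and untreated libraries of FANCD2 did not overlap in any line. The change of FANCD2 was -2.55 (SE 0.16) in SKBR3, -2.39 (SE 0.14) in AU565, -1.56 (SE 0.13) in 94T778, -1.56 (SE 0.12) in A375 and -1.14 (SE 0.11) in SKMEL28. The genome holds near copies of FANCD2, the pseudogenes FANCD2P1 and FANCD2P2, so part of its reads may have been lost as aligned at more than 1 place.

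FANCB, FANCA and FANCG were the core complex members called lower in every line. FANCB, an X-linked scaffold that holds FANCL and FAAP100 in the catalytic module, fell furthest among the 8 core members, by 2.03 (SE 0.14) on the average (adjusted p = 2.40e-15). It had 2.78 and 4.16 CPM with torkinib in 94T778, against 10.6 and 12.6 CPM untreated. In A375 it had 8.68 and 8.01 CPM with torkinib, against 19.9 and 16.95 CPM untreated, and in SKMEL28 7.21 and 10.3 CPM with torkinib, against 29.9 and 30.3 CPM untreated. The breast lines carried little FANCB even before treatment. SKBR3 had 0.397 and 0.479 CPM of FANCB with torkinib, against 3.13 and 3.08 CPM untreated, which were 2 and 3 reads against 17 and 21. AU565 had 0.951 and 1.17 CPM with torkinib, against 7.13 and 6.999 CPM untreated. The groups were apart in each line, but the change of -2.76 in SKBR3 had an SE of 0.55 and a 95% interval of -3.88 to -1.64, the widest among the 10 genes.

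FANCA and FANCG, which bind each other within the core complex, were called lower in each of the 5 lines too, with averages of -1.36 (SE 0.08) and -1.19 (SE 0.06). FANCA had 18.8 and 17.01 CPM with torkinib in 94T778, against 50.2 and 49.9 CPM untreated, and 7.61 and 6.01 CPM with torkinib in AU565, against 22.7 and 21.7 CPM untreated. Its change ran from -1.72 (SE 0.21) in AU565 to -0.96 (SE 0.17) in A375. In SKBR3 the FANCA libraries spread more, with 10.5 and 6.06 CPM with torkinib, against 29.97 and 19.7 CPM untreated, still without overlap. FANCG had 12.7 and 10.99 CPM with torkinib in AU565, against 36.8 and 37.9 CPM untreated, and 18.5 and 21.3 CPM with torkinib in SKMEL28, against 31.9 and 33.1 CPM untreated. The change of FANCG ran from -1.66 (SE 0.13) in AU565 to -0.72 (SE 0.12) in SKMEL28. In the RefSeq annotation FANCA overlaps ZNF276, FANCB GLRA2, FANCC AOPEP, FANCD2 FANCD2OS, FANCI POLG and FANCL VRK2, and reads of the shared stretches cannot be told apart here, since no strand setting is known.

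The remaining falling members, FANCM, FANCC, FANCE and FANCL, changed less on the average and were not called lower in every line. FANCM, a DNA translocase that anchors the core complex at the fork, had treated libraries below untreated ones in all 5 lines, with treated means at 57.8% of untreated in 94T778 up to 79.3% in A375. It was called lower in 94T778 at -0.79 (SE 0.15), AU565 at -0.68 (SE 0.14) and SKMEL28 at -0.46 (SE 0.14). FANCC, an adaptor that pairs with FANCE and FANCF, was called lower in AU565 at -0.94 (SE 0.21), A375 at -0.77 (SE 0.15) and 94T778 at -0.43 (SE 0.14). In SKMEL28 FANCC had 12.7 and 14.1 CPM with torkinib, against 12.1 and 14.5 CPM untreated, which overlapped, with a 95% interval of -0.35 to 0.31 for the change. FANCE, which contacts FANCD2 directly, was called lower in AU565 at -0.90 (SE 0.19) and SKBR3 at -0.68 (SE 0.22). In 94T778 it pointed the other way, with 10.9 and 13.5 CPM with torkinib, against 9.91 and 8.74 CPM untreated, a change of 0.38 (SE 0.19) that was not called (adjusted p = 0.0906). FANCL, the ubiquitin ligase itself, was called lower in SKMEL28 at -0.60 (SE 0.11) and in 94T778 at -0.45 (SE 0.16). In AU565 FANCL had 16.5 and 12.6 CPM with torkinib, against 12.98 and 16.5 CPM untreated, and its change had a 95% interval of -0.37 to 0.33.

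Several of these smaller calls were lost when a single library was left out. Without torkinib replicate 1 or untreated replicate 2 of 94T778, FANCC there changed by -0.37 or -0.40, with adjusted p of 0.0788 or 0.0729. FANCL in 94T778 was not called without any of its 4 libraries, at changes of -0.49 to -0.41 and adjusted p of 0.0569 to 0.116. FANCE in SKBR3 lost its call without torkinib replicate 1 (-0.48, adjusted p = 0.117) or untreated replicate 2 (-0.52, adjusted p = 0.120), the library with more PMEL. FANCM in SKMEL28 lost its call without torkinib replicate 1 (-0.41, adjusted p = 0.0809) or untreated replicate 2 (-0.39, adjusted p = 0.132). In the other direction, FANCE in 94T778 was called higher without torkinib replicate 1 (0.53, adjusted p = 0.0467), and FANCC in SKBR3 was called lower without untreated replicate 2 (-0.68, adjusted p = 0.0168).

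FANCF, the adaptor that links FANCM and the other core parts, was the exception and stood higher with torkinib. It had 25.1 and 24.3 CPM with torkinib in AU565, against 11.1 and 11.5 CPM untreated. SKMEL28 had 37.8 and 38.9 CPM of FANCF with torkinib, against 21.9 and 22.0 CPM untreated, and SKBR3 had 18.5 and 17.2 CPM with torkinib, against 8.46 and 11.7 CPM untreated. Treated and untreated libraries were apart in these 3 lines, but the share of all genes apart in the higher direction was not worked out. In the lower direction that share was 34.2 to 37% per line. The changes of FANCF in that order of lines were 1.13 (SE 0.14), 0.80 (SE 0.12) and 0.80 (SE 0.17), with adjusted p of 1.70e-08, 5.81e-07 and 1.13e-04. In 94T778 it had 23.3 and 22.6 CPM with torkinib, against 20.7 and 21.7 CPM untreated, and in A375 12.8 and 12.02 CPM with torkinib, against 10.4 and 12.9 CPM untreated. The libraries were apart in 94T778 and overlapped in A375, and neither change was called, with changes of 0.11 (SE 0.13) and 0.09 (SE 0.17). The average of the 5 lines rose by 0.59 (SE 0.07, adjusted p = 8.26e-10).

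**Figure D2:**
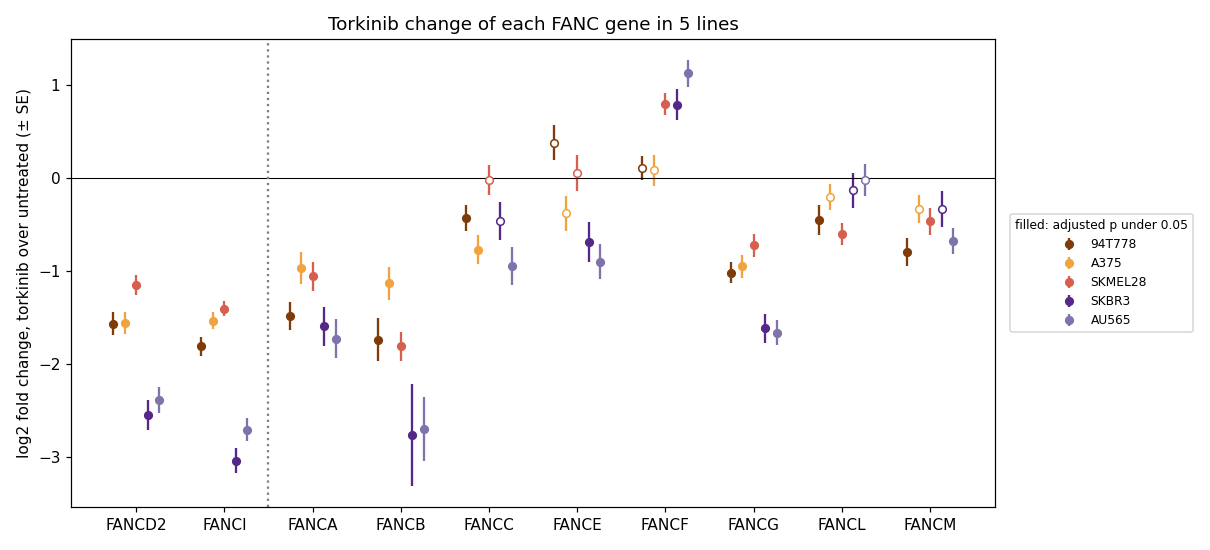
Log2 fold change of torkinib over untreated (y axis, with SE bars) for FANCD2 and FANCI left of the dotted line and the 8 core members right of it, in 5 lines by colour; filled circles had an adjusted p under 0.05. FANCF lies above 0 in all lines, FANCE on both sides, and FANCB reaches -2.76 in SKBR3.

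Promoters are shown for the 3 genes with an E2F word near the start (FANCD2, FANCA and FANCC), for FANCG as a gene that fell in all 5 lines without one, and for FANCF, which rose. E2F factors and the DREAM complex are known to act at promoters of cell cycle genes through short words near the start. RefSeq promoters (GRCh38.p14) were at hand for 9 of the 10 genes, as 250 bases before the annotated start and 30 from it on. Capitals mark matches on either strand to the E2F words TTTCCCGC, TTTGGCGC, TTTGCCGC or TTTCGCGC, or to the cell cycle homology region (CHR) word TTTGAA and its variant form TTCGAA. The CCAAT box was searched as well and is not marked. No 2 matches overlapped in these windows.
FANCD2, chr3:10026187-10026466, plus strand: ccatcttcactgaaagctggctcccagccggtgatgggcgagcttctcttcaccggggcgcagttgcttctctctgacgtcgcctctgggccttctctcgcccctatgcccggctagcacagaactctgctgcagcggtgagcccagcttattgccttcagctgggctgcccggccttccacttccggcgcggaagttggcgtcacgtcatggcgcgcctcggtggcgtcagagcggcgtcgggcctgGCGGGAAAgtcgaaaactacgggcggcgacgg
FANCA, chr16:89816618-89816897, minus strand: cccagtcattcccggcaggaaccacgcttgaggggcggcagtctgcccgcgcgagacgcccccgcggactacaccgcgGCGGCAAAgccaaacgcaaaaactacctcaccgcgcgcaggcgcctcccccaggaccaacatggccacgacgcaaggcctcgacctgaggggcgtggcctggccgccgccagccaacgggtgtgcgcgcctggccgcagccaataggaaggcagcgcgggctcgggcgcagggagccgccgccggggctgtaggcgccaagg
FANCG, chr9:35079913-35080192, minus strand: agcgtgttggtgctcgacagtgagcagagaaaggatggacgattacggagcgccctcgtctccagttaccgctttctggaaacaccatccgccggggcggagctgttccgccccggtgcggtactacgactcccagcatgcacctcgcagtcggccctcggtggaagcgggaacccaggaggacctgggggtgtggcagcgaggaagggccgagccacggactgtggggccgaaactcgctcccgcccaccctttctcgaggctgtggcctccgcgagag
FANCC, chr9:95317680-95317959, minus strand: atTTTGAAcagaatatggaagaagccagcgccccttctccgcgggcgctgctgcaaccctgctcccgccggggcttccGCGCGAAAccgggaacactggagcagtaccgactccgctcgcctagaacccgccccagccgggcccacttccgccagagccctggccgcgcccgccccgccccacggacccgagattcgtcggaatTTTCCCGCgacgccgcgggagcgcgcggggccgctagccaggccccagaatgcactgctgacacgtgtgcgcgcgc
FANCF, chr11:22625794-22626073, minus strand: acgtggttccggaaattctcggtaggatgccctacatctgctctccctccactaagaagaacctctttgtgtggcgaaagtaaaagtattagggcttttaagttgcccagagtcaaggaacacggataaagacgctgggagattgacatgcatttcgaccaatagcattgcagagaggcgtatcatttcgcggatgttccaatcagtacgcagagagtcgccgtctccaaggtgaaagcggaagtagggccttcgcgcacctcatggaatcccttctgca

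FANCD2 held TTTCCCGC on the opposite strand at position -2 from the start. FANCA held TTTGCCGC on the opposite strand at position -172 from the start. The FANCC window shown held E2F words at -172 and -46 and TTTGAA at -248, and another annotated FANCC start held none. FANCG, FANCB, FANCE, FANCL, FANCM and FANCF held no E2F or CHR word, and CCAAT was found in FANCF at -92 and -52, in FANCM at -207 and -74 and in FANCA at -33. Of 35116 promoter windows of the same length, 3.14% held any of the 4 E2F words, 15.6% a CHR word and 33.6% CCAAT. A match, or the lack of one, describes letters in the window, and binding was not tested. FANCB and FANCG, which fell in all 5 lines, and FANCF, which rose in 3, all held none of the E2F words.

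Set against FANCD2 and FANCI, the core complex fell less in each of the 5 lines. On the average the median change of the 8 core members was -0.52, from -2.03 for FANCB to 0.59 for FANCF, beside -1.84 for FANCD2 and -2.10 for FANCI. The core median stood above the mean of the pair by 2.22 in SKBR3, 1.63 in AU565, 1.06 in 94T778, 0.97 in A375 and 0.74 in SKMEL28. Of the 8 core members, 7 lay above both FANCD2 and FANCI on the average and in 94T778, SKMEL28, SKBR3 and AU565, and all 8 did so in A375. The exception was FANCB, which fell further than both in SKMEL28 and lay between them on the average and in the other 3 lines in which it was not above both. These are descriptions of 10 chosen genes, and no test was made of the difference.

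The same was seen within each library. The log2 ratio of summed core CPM to the summed CPM of the pair was 2.29 and 1.91 with torkinib in SKBR3, against 0.01 and -0.18 untreated. AU565 had 1.77 and 1.88 with torkinib, against -0.04 and -0.03 untreated, and 94T778 had 1.29 and 1.46 with torkinib, against 0.33 and 0.40 untreated. The melanoma lines started lower. A375 had a ratio of 0.35 and 0.36 with torkinib, against -0.65 and -0.51 untreated, and SKMEL28 had -0.46 and -0.27 with torkinib, against -1.30 and -1.24 untreated. Treated libraries were above untreated ones in each line, and the sums weigh longer genes more, so the ratio serves to compare libraries and its sign is not read.

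**Figure D3:**
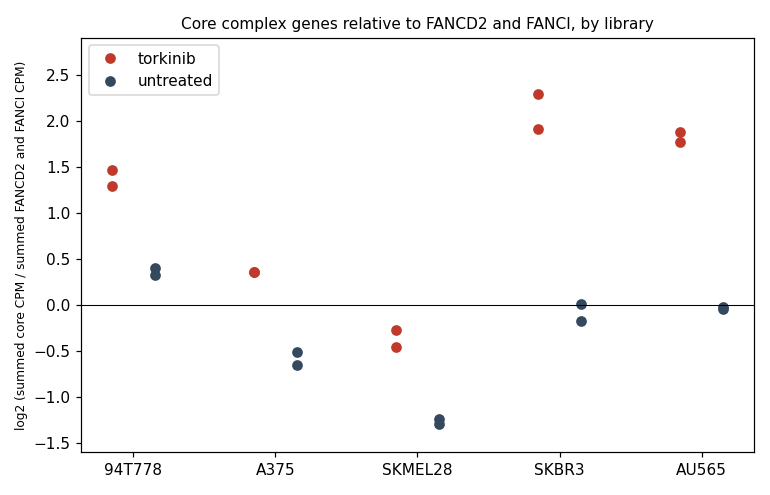
Log2 ratio of the summed CPM of 8 core genes to the summed CPM of FANCD2 and FANCI (y axis) in each library of 5 lines, torkinib in red left of untreated in dark blue. Treated libraries sit above untreated ones in every line, from -0.46 and -0.27 in SKMEL28 to 2.29 and 1.91 in SKBR3.

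The size of the response differed between lines for 8 of the 10 genes (edgeR, adjusted p under 0.05), a count near the share of 68.4% of all genes tested. FANCI and FANCD2 had the lowest adjusted p, 2.29e-11 and 1.47e-07, and fell furthest in the breast lines. Adjusted p does not rank the genes by size of difference. The span between the extreme lines was 1.64 for FANCI, 1.63 for FANCB and 1.40 for FANCD2. FANCG and FANCB also fell furthest in SKBR3 and AU565 (adjusted p = 6.22e-05 and 0.00613), and FANCF rose furthest in AU565 (adjusted p = 3.88e-05). FANCE had adjusted p = 3.89e-04, FANCC 0.0124 and FANCA 0.0345. FANCL (adjusted p = 0.0596) and FANCM (adjusted p = 0.206) gave no call, with spans between the extreme lines of 0.58 and 0.46. Among A375, SKMEL28 and AU565, which had the same dose, 9 of 10 genes differed, all but FANCM, beside 52.5% of all genes; over left-out libraries that count ran from 6 to 9, as did the count over 5 lines. FANCA lost that call under 13 of 28 alternatives, FANCL under 9 and FANCE under 3. For FANCA these included edgeR with relative log expression factors (adjusted p = 0.0523), DESeq2 (0.0804) and limma-voom (0.0936). DESeq2 gave an adjusted p of 0.109 for FANCL and 0.0987 for FANCE. At that dose FANCI changed by -2.70 in AU565, -1.53 in A375 and -1.40 in SKMEL28 (adjusted p = 8.84e-09), and FANCF by 1.13, 0.09 and 0.80 (adjusted p = 4.95e-04). The 5-line difference of FANCA was not called by DESeq2 (adjusted p = 0.0845), nor without any of 8 libraries. These were untreated replicates 1 and 2 of 94T778 (0.0510 and 0.0532), 1 of A375 (0.0632), 2 of SKMEL28 (0.0528) and 1 of AU565 (0.0571), and torkinib replicates 1 of A375 (0.0874), 2 of SKMEL28 (0.0795) and 2 of AU565 (0.0912). That of FANCC was not called by DESeq2 (adjusted p = 0.0599) or without SKMEL28 torkinib replicate 2 (adjusted p = 0.0516), and that of FANCL was called with relative log expression factors (adjusted p = 0.0409), without untreated replicate 1 of A375 and SKBR3 together (0.0235), and without A375 untreated 1 (0.0491), SKMEL28 untreated 1 (0.0370), SKBR3 untreated 1 or 2 (0.0423 or 0.0281), AU565 untreated 2 (0.0340), A375 torkinib 2 (0.0313), SKBR3 torkinib 2 (0.0434) or AU565 torkinib 2 (0.0326).

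Before treatment the lines already differed in each of the 10 genes, as they did in 96.3% of all genes tested. FANCB spanned the widest range of untreated means, 9.71-fold, from 30.1 CPM in SKMEL28 through 18.4 in A375, 11.6 in 94T778 and 7.06 in AU565 to 3.10 in SKBR3, and each neighbour in that order differed (adjusted p at most 0.00148). FANCI spanned 6.21-fold in the same order of lines, from 449 to 72.3 CPM, again with each neighbour apart (adjusted p at most 0.0205). FANCL spanned 4.23-fold and was highest in SKMEL28 at 58.3 CPM, with AU565 and SKBR3 not differing at 14.7 and 13.8 CPM (adjusted p = 0.795). FANCD2 varied less, 1.68-fold, with A375 and SKMEL28 alike within error at 79.9 and 75.4 CPM, then AU565 at 60.2, 94T778 at 51.8 and SKBR3 at 47.7 CPM. FANCG spanned 1.68-fold and was highest in 94T778 at 48.5 CPM, while AU565, A375, SKMEL28 and SKBR3 ran from 37.3 to 28.8 CPM with no neighbours that differed. FANCA was highest in 94T778 at 50.1 CPM and lowest in SKBR3 and AU565 at 24.8 and 22.2 CPM, which did not differ (adjusted p = 0.516). FANCF fell into a higher group, SKMEL28 and 94T778 at 21.9 and 21.2 CPM, and a lower one, A375, AU565 and SKBR3 at 11.7, 11.3 and 10.1 CPM, with no difference between neighbours within either. FANCC was highest in 94T778 and A375 at 25.2 and 22.8 CPM and stood at 13.3 to 10.9 CPM in SKMEL28, AU565 and SKBR3. FANCE ran from 14.6 CPM in AU565 to 8.21 CPM in SKMEL28 with no neighbours that differed. FANCM ran from 24.5 CPM in AU565 to 10.8 CPM in SKBR3, and of its neighbours A375 and SKBR3 differed (adjusted p = 5.68e-04).

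Genes of the cell cycle fell together with the FANC genes. All 13 listed genes of the G1/S transition, such as PCNA and the MCM helicase subunits, and all 10 of G2 and mitosis, such as MKI67 and PLK1, were called lower in each of the 5 lines. The G1/S median was -2.32 in AU565, -1.86 in SKBR3, -1.37 in 94T778, -1.03 in SKMEL28 and -0.98 in A375. The mean of FANCD2 and FANCI lay below the G1/S median in each line, at -2.54, -2.79, -1.68, -1.27 and -1.54, and above the G2/M median, which ran from -4.47 in SKBR3 to -2.25 in A375. Single G1/S genes spread widely, from -0.76 for MCM3 to -3.66 for RRM2 on the average of the 5 lines. The average changes of FANCD2 and FANCI lay within that range. The core median lay above both cell cycle medians in each line. The part of the cell cycle change in the FANC result was not tested.

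**Figure D4:**
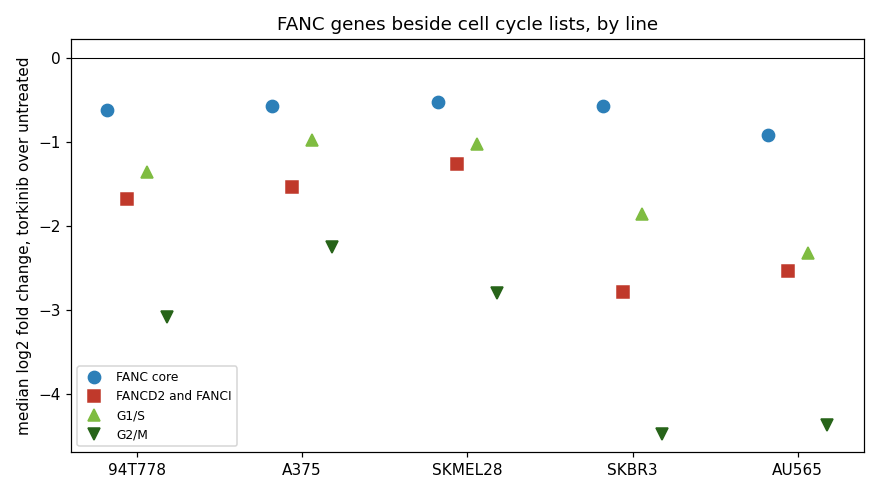
Median log2 fold change of torkinib over untreated (y axis) in 5 lines for the 8 core genes, for FANCD2 and FANCI, for 13 G1/S genes and for 10 G2/M genes. The pair lies below the G1/S median and above the G2/M median in every line, and the core lies nearest to 0.

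Around the FANC genes, 29 further genes of the pathway were listed, 28 of which were tested. On the average 18 were called lower and 6 higher, beside 28.1% and 28.4% of all genes tested, with a median change of -0.54. In all 5 lines 10 were called lower, beside 4.62% of all genes. Of the 5 proteins that bind the core complex, 3 were lower on the average, and FAAP100, the partner of FANCB and FANCL, was higher at 0.41 (SE 0.05) and in 3 lines. FAAP24, the partner of FANCM, changed by -0.85 (SE 0.15), and the histone-fold proteins CENPS and CENPX, which also bind FANCM, by -0.48 and -0.36. FAAP20, which binds FANCA, was called higher in 94T778, A375 and SKMEL28 at 0.55, 0.45 and 0.52 and lower in SKBR3 at -0.55 (adjusted p = 0.00292). Such opposite calls were made for 24% of all genes tested.

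Of the 4 genes that add, remove or act on the ubiquitin, 3 were lower on the average and WDR48 was higher. UBE2T, the conjugating enzyme that works with FANCL, was lower in all 5 lines, from -3.23 (SE 0.16) in SKBR3 to -1.78 (SE 0.15) in 94T778. USP1, which takes the ubiquitin off FANCD2 and FANCI, was lower in 4 lines, at -1.04 in A375, and had a change of -0.12 (SE 0.12, adjusted p = 0.457) in SKBR3. WDR48, which activates USP1, was higher in 4 lines, with 1.03 (SE 0.10) in SKBR3. RFWD3, a ligase that acts on RPA, was lower in all 5 lines, from -1.02 in 94T778 to -0.34 in SKBR3.

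Nucleases of the unhooking step changed in both directions. SLX4, the scaffold that gathers them, was lower in 4 lines, at -2.24 (SE 0.33) in SKBR3, and the nuclease partner EME1 and the exonuclease DCLRE1B were lower in all 5 lines, with averages of -1.43 and -0.81. FAN1, a nuclease recruited by ubiquitinated FANCD2, was higher in 94T778, SKBR3 and AU565, at 0.29, 0.74 and 0.95. ERCC1, a partner of the nuclease ERCC4, was lower in A375 at -0.99 and, close to the threshold, in SKBR3 at -0.24 and higher in SKMEL28 at 0.37. SLX1A and SLX1B are near-identical copies with 46 and 130 reads in all, and SLX1A was not tested.

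Of the 7 genes of the recombination step, 6 were lower and PALB2 higher on the average, where 28.1% of all genes were lower and 28.4% higher. The helicase BRIP1 ran from -3.04 in AU565 to -1.15 in SKMEL28, XRCC2 from -3.11 in SKBR3 to -0.72 in SKMEL28, and BRCA2, a mediator of recombination, from -2.64 in SKBR3 to -0.65 in SKMEL28. BRCA1 was called lower in all 5 lines as well, from -3.09 in SKBR3 to -0.65 in SKMEL28. PALB2, which joins BRCA1 to BRCA2, was higher in SKMEL28, SKBR3 and AU565, at 0.27, 0.50 and 0.42. Among the 3 bypass genes MAD2L2 was lower in all 5 lines, from -1.55 in SKBR3 to -0.45 in SKMEL28. REV3L, the catalytic subunit of polymerase zeta, was higher in 94T778, A375, SKBR3 and AU565 at 0.49, 0.51, 1.20 and 0.82 and lower in SKMEL28 at -0.46.

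**Figure D5:**
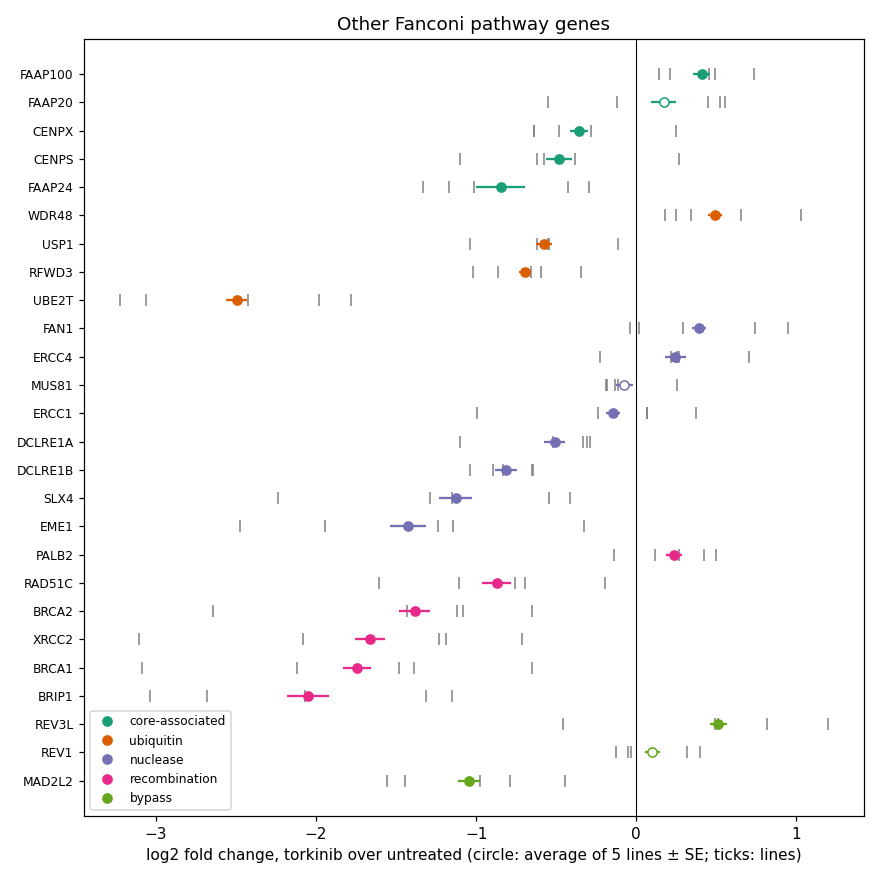
Log2 fold change of torkinib over untreated (x axis) for other Fanconi pathway genes (SLX1A and SLX1B among those left out), grouped by role and colour; circles give the average of 5 lines with SE, filled where the adjusted p was under 0.05, and ticks give single lines. UBE2T and BRIP1 lie lowest of the genes drawn at -2.50 and -2.05, and REV3L and WDR48 highest at 0.51 and 0.49.

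Across the 20 libraries the genes whose log2 levels ran most like each FANC gene differed between members. FANCD2 ran closest to NUF2 and CENPF, both of the kinetochore, and NCAPG2, a condensin subunit (Pearson r of 0.98 for each). FANCG ran closest to WDR76, PLK4 and CCNA2 (0.97 each), FANCA to KIF24, STIL and CDCA8 (0.95 each), and FANCI to MCM3, R3HDM1 and PROCR (0.97 each). FANCB ran closest to HSPA4, KIAA1524 and FAM72B, with r of 0.98, 0.97 and 0.97. FANCM ran closest to G2E3, with r of 0.91, and GPAM was also among its nearest genes at 0.88. FANCF ran closest to USP40 at 0.94, ANKRD57 at 0.93 and NHLRC3 at 0.91. FANCC was nearest to SEPT8, WDR54 and SLC16A5 (0.94 each), FANCL to UCN2, DAAM2 and LZTS1 (0.96 each), and FANCE to RABEP1 at 0.90, OCRL at 0.85 and LIPE at 0.85. Within the set, FANCB with FANCI had the highest r at 0.95 and FANCE with FANCF the lowest at -0.47. These values describe 20 points that share lines and treatment, and no p is given.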

How the data were processed

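RNA extracted with a Qiagen RNeasy midi kit (protocol in the labels) from 5 lines was sequenced. The deposited files hold raw read counts per gene symbol, without normalization. HISAT2 2.04, HTSeq 0.6.1, limma 3.34.9 and hg19 (GRCh37) are named in the submitters' processing notes; the role of each, the annotation and any use of strand were not given in the sources used here. Summary lines naming no gene held 37.6 to 52.2% of reads (ambiguous 1.08 to 1.57%, aligned at more than 1 place 9.32 to 15.1%) and were kept out of library sizes and tests.

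The deposited counts were fitted with edgeR 4.0.16 in R 4.3.3 (TMM factors, filterByExpr, quasi-likelihood test, 10 group means in 1 model, Benjamini-Hochberg over 16698 genes). The common biological coefficient of variation was 0.0547. SE is the size of the unshrunk change divided by the square root of F. The 95% intervals are centred on the printed change, which edgeR shrinks slightly at low counts. The fit was tried on simulated counts for the average of the 5 lines alone, with the same spread set for all genes. That trial does not bear on the tests within or between lines. Whether replicates were separate cultures is not stated, and the p-values then reflect only the spread between libraries, possibly technical. Replicate libraries differed by more than sampling noise in every group, so none was merged. Alternatives were other scaling factors, no filter, DESeq2 1.42.0, limma-voom 3.58.1, only the compared samples, a replicate block and leaving out libraries. All 10 members are named; of other pathway genes, those called alike in all 5 lines or in opposite directions are named by rule, and further ones were picked after their values were seen. The 3 genes most like each member were taken by Pearson r of log2 CPM (prior count 2). Some genes that these rules would name are not reported here. Members and lists were chosen with earlier results of these data known. Depth limits FANCB in SKBR3 most.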

Additional observations from a re-analysis of the deposited data

Results flagged for a closer look

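The response to torkinib differed between the 5 lines in 8 FANC genes by the test of the difference itself (edgeR, 4 contrasts tested together). The adjusted p was 2.29e-11 for FANCI, 1.47e-07 for FANCD2, 3.88e-05 for FANCF, 6.22e-05 for FANCG, 3.89e-04 for FANCE, 0.00613 for FANCB, 0.0124 for FANCC and 0.0345 for FANCA, each beside 68.4% of all genes with such a difference. The count of 8 of the 10 genes was near that share, so it does not set the FANC genes apart. FANCA lost the call of a difference under 9 alternatives and FANCC under 2, and the count of genes ran from 6 to 9 over left-out libraries. Dose differed between lines as well, and its part was not tested.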

How the results depend on the processing

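Counts of FANC genes called lower stayed at 9 on the average and at 5 to 8 per line under all alternatives run. A FANC gene called higher in 94T778 appeared once, so that count ran from 0 to 1 over left-out libraries. Other pathway genes called higher in 94T778 numbered 4, but 2 with DESeq2, 2 with no filter on low counts and 1 to 4 over left-out libraries. The same counts over left-out libraries ran from 2 to 4 in A375, 3 to 5 in SKMEL28 and 3 to 6 in AU565; the cause was not tested. The core median minus the pair mean ranged from 1.40 to 1.49 on the average. Of 2480 single-gene values 2411 kept their side of the threshold and any direction, 46 lost a call, 12 gained one and 11 changed sign, none of them called. These values include adjusted p of differences between lines, which have no direction. For the change in a given line, most left-out libraries came from other lines. Most of these values could therefore hardly move, and the share kept is no measure of robustness. Over left-out libraries FANCC in SKMEL28 ran from -0.12 to 0.14, FANCE in SKMEL28 from -0.10 to 0.18, FANCF in A375 from -0.053 to 0.25, FANCL in SKBR3 from -0.29 to 0.031 and FANCL in AU565 from -0.21 to 0.17. FANCF in A375 was also -0.053 without untreated replicate 1 of A375 and SKBR3 together, and FANCL in AU565 was 0.00924 with AU565 libraries alone.

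Replicate numbers gave no clear sign of pairing: deviations of same-numbered libraries correlated at -0.11 in 94T778 to 0.17 in SKBR3. With 2 libraries per group, such weak values cannot show that the libraries were unpaired. With the numbers as a replicate block, 9 FANC genes were called lower on the average, 8 in AU565 and 94T778 each, 7 in SKMEL28 and 6 in SKBR3 and A375 each, as without it, and FANCC in SKMEL28 was at 0.00733. With the 94T778 numbers crossed, an alternative added after seeing the data, the counts were the same and FANCC in SKMEL28 was at 0.00731.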
